A study of Mus musculus with 6 samples.

Results

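The transcripts described here are 9 integrin chains and 1 integrin ligand of leukocytes: Itgal, Itgb2, Itgax, Itgae, Itgb7, Itga4, Itgb1, Itgav, Itgb3 and Icam1. They were taken by gene symbol from a table of 17831 genes in bulk RNAseq of cultured lung group 2 innate lymphoid cells (ILC2s). The rule names genes and sets no threshold on a measured value, but the list was drawn up with earlier results of these data known. All 10 were in the table and all 10 passed the filter on low counts, which left 13623 genes for testing. The comparison asks how the transcripts of these adhesion receptors differ between ILC2s with and without SIRPα, the inhibitory receptor that binds CD47.

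There were 3 WT libraries (genotype given as CB57BL/6) and 3 SIRPα KO libraries (genotype given as SIRPalphatm1Ynliu/J). Mice of both groups were 6 to 8 weeks old and received 0.5 µg of recombinant mouse (rm)IL-33 intranasally for 3 days, so every cell came from an IL-33-exposed lung. ILC2s were sorted on day 4 as live CD45+ ST2+ CD127+ cells lacking lineage markers. Among these were CD11c and CD11b, the proteins made from Itgax and Itgam, and the T and B cell proteins CD3ε, CD4, CD5, TCRβ, TCRγδ and B220, and CD335 of NK cells. The sorted cells were then kept in medium with rmIL-2 plus rmIL-7, for a time stated as 18 h in one place and 24 h in another, and cDNA was amplified from 10 pg of RNA. The study describes the KO mice as SIRPα-/- with no restriction to a cell type, so myeloid cells of the same lungs carried the mutation too. The sample codes are 37, 37V1 and 38 for WT replicates 1, 2 and 3, and 43, 44 and 44V1 for SIRPα KO replicates 1, 2 and 3. The series' design text speaks of duplicates while the labels give 3 libraries a group, and nothing states whether libraries that share a code number came from separate mice. Each n of 3 below therefore counts libraries, and the p values measure the spread between libraries, which may in part be technical.

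Integrins are receptors made of an alpha chain and a beta chain that pair before they reach the cell surface, and most of them stay in a bent, inactive shape until signals inside the cell bring talin and kindlin to the beta tail. LFA-1 (Itgal with Itgb2) and VLA-4 (Itga4 with Itgb1) hold lymphocytes on ICAM-1 and VCAM-1 of inflamed vessels, and the β7 integrins bind MAdCAM-1 or E-cadherin of mucosal tissue. The αv chain with β3 binds vitronectin, osteopontin and fibronectin, and CD47 was first named integrin-associated protein because it sits beside such β3 integrins in the membrane.

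Of the 10 transcripts, Itga4 rose and Itgb7 and Itgb3 fell in SIRPα KO, while Itgal, Itgb2, Itgax, Itgae, Itgb1, Itgav and Icam1 did not pass the test. The test was edgeR's quasi-likelihood test with Benjamini-Hochberg adjustment over all 13623 genes and a threshold of 0.05, and every adjusted p below comes from it unless another tool is named. Over all genes it called 11.7%, with 5.94% higher and 5.81% lower in SIRPα KO. With counts corrected for the length and GC content of transcripts, Itgb3 alone of the 10 was called, beside 8.52% of all genes. The median log2 fold change of the 10 members was 0.07 and that of all genes tested was -0.03.

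The libraries held between 13980491 and 19051504 reads on genes. WT replicate 3 stood apart from the other WT libraries. The median chi-square per degree of freedom was 22.8 and 21.8 for its pairs with WT replicates 1 and 2 and 7.12 for those replicates with each other, while the SIRPα KO pairs lay between 3.0 and 3.47. The spread between replicates, given by edgeR as a biological coefficient of variation, came to 38.1% for WT and 15.2% for SIRPα KO. Without WT replicate 3, 7 of the 10 members were called, beside 18.4% of all genes, and the log2 fold changes were -1.18 for Itgb3 (adjusted p = 0.00110), -0.57 for Itgb7 (0.00324) and 0.77 for Itga4 (0.0381). Without SIRPα KO replicate 1, 2 or 3 none was called, beside 0.112%, 0.120% and 0.120% of all genes. An unadjusted p under 0.05 was reached by 4 or 5 of the 10, beside 2991 of 14242, 2935 of 14146 and 3183 of 14141 genes. With libraries of one code summed none was called either (0.0686% of all genes). There 4 members had an unadjusted p under 0.05, as had 3359 of all 14581 genes. DESeq2 on the full set called 5 of the 10 (22.9% of all genes). The ILC2 identity genes, 15 of 15 in the table, summed to 15565 to 16759 CPM (normalised counts, scaled to the same library size) in WT and 21416 to 21945 CPM in SIRPα KO. More than any other marker, Il5 carried this sum (8448 to 9711 and 12589 to 13241 CPM). With all libraries, 3 of the 15 were called higher and 2, Id2 and Thy1, lower, beside 5.94% and 5.81% of all genes. Thy1 was low, at 12.1 to 23.0 CPM in WT and 3.64 to 4.16 CPM in SIRPα KO. Sirpa itself had 149, 96 and 73 reads in WT and 48, 85 and 28 reads in SIRPα KO. Sirpa was lower in every SIRPα KO library after scaling, at -1.12 on the log2 scale, without passing the test (adjusted p = 0.115). With bulk RNA, fewer cells that express a gene and less RNA of it per cell cannot be told apart.

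The sequence upstream of a start site is shown for the 2 called members with an entry in RefSeq's promoter set, Itga4 and Itgb7, and for Icam1, whose induction by NF-κB is well known. Of the 10 members, 6 had an entry. Bases are on the gene's own strand of build GRCm38.p6, up to 250 before the RefSeq start, without bases that GENCODE places inside the gene. The window of Itga4 is chr2:79255176-79255425 on the plus strand, that of Itgb7 is chr15:102231945-102232185 on the minus strand, and that of Icam1 is chr9:21015690-21015939 on the plus strand. Capitals mark letter matches to the searched motifs.
Itga4: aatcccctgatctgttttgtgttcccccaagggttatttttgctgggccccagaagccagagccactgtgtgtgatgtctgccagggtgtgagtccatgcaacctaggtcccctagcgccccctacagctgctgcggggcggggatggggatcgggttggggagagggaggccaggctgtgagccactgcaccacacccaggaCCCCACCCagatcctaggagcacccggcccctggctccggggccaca
Itgb7: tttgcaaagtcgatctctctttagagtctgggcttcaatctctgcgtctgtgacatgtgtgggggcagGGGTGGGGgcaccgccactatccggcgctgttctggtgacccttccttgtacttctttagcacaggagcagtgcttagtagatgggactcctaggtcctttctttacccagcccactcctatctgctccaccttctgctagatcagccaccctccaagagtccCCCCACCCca
Icam1: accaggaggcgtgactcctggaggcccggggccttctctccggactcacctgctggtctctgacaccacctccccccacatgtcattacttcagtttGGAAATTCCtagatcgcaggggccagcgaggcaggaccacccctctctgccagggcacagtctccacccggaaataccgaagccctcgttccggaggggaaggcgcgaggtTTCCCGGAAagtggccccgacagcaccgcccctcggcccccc

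Motifs were searched on both strands in 32851 promoters of 250 bases: a κB motif (GGAANTTCC), a STAT motif (TTCNNNGAA) and a CACCC box (CCCCACCC). The Icam1 window held the κB letters starting 153 bases before the start, which 0.813% of all promoters hold, and a STAT match 42 bases before it, which 7.02% hold. Itgb7 held the CACCC letters 182 and 19 bases before its start and Itga4 held them 47 bases before its own, as do 9.05% of promoters. The windows of Itgav, Itgax and Itgb1, the other members with an entry, held no match to any of these motifs. Such matches describe the letters only.

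Levels were compared between genes per length, as reads divided by the length of the longest annotated transcript and scaled so that the genes of every library have the same sum. In WT, Itgb7 was the highest member at 413 ± 72.3 (SD, n = 3), followed by Itgb2 at 290 ± 62.5 (SD, n = 3). Itgal stood at 118 ± 18.4, Itgb3 at 92.5 ± 28.9, Itgb1 at 92.2 ± 30.2 and Icam1 at 88.7 ± 13.7 on the same scale (SD, n = 3). Among these latter 4, neighbours in the order did not differ beyond their summed spread, nor did Itgb7 from Itgb2. Itgav was lower at 17.6 ± 8.52, and Itga4, Itgax and Itgae came last at 4.36 ± 1.39, 2.22 ± 1.85 and 1.93 ± 1.90 per length (SD, n = 3). The order in SIRPα KO began with the same 3 members, with Itgb7 at 330 ± 5.19, Itgb2 at 276 ± 22.7, Itgal at 138 ± 3.22 then Itgb1 at 134 ± 13.7 per length (SD, n = 3). Itgb3, at 52.0 ± 3.53 per length, stood below Icam1 at 109 ± 3.27 and above Itgav at 38.0 ± 1.69. Itga4 had 9.11 ± 0.784, Itgax 4.43 ± 1.65 and Itgae 0.294 ± 0.150. In SIRPα KO, Itgal and Itgb1 were the only neighbours in this order whose means lay within their summed spread.

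**Figure D1:**
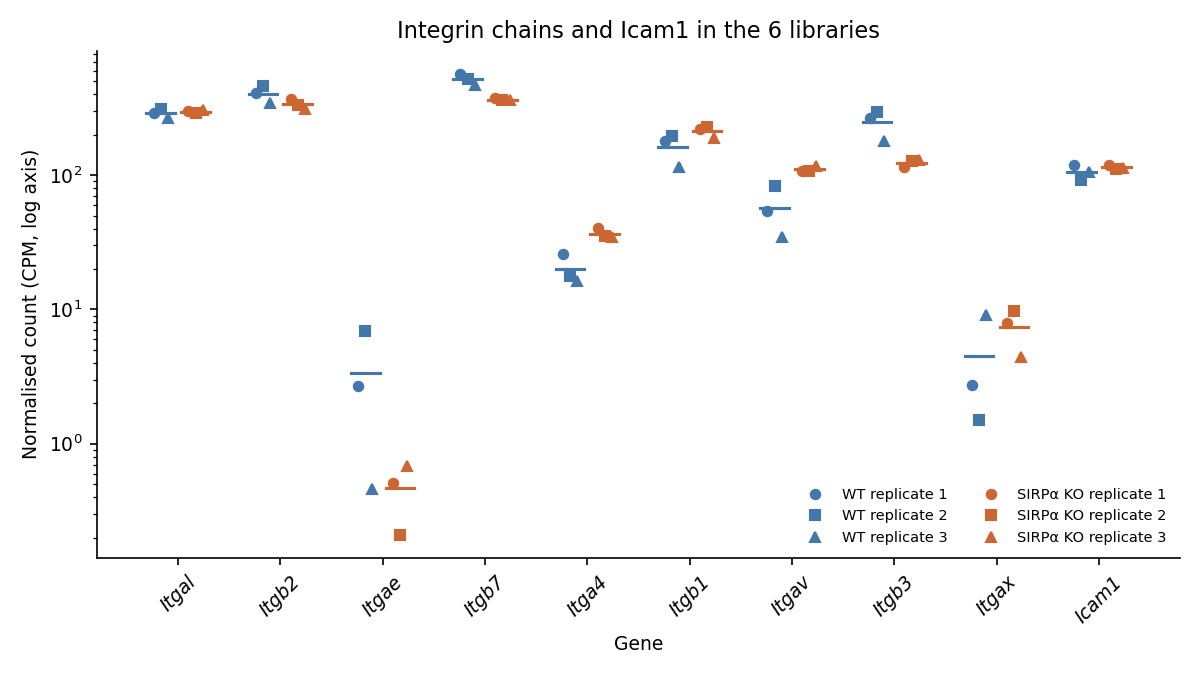
Normalised count in CPM on a log axis for each of the 10 members, with 1 point per library and a bar at the group mean. The SIRPα KO points of Itga4 and Itgav lie above all WT points and those of Itgb7 and Itgb3 below them, while Itgae in WT spreads from 0.463 to 6.90 CPM.

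LFA-1 is the main receptor of lymphocytes for ICAM-1. Itgal, on chromosome 7 (127296260 to 127335138, mm10), encodes its alpha chain. WT replicates 1, 2 and 3 had 292, 311 and 267 CPM of Itgal, and SIRPα KO replicates 1, 2 and 3 had 298, 289 and 305 CPM. All SIRPα KO values lay within the WT range. The log2 fold change of Itgal was 0.04, with a 95% confidence interval from -0.20 to 0.27 and an adjusted p of 0.835, and its sign turned to -0.10 after the length and GC correction.

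Itgb2 (chromosome 10, 77530252 to 77565708) encodes the β2 chain that LFA-1 shares with the other leukocyte integrins. Its levels were 406, 458 and 343 CPM in WT against 369, 333 and 312 CPM in SIRPα KO. The groups overlapped, since WT replicate 3 lay below SIRPα KO replicate 1. Itgb2 differed by -0.25 on the log2 scale (adjusted p = 0.229, standard error 0.13). Without WT replicate 3 it was -0.35 with an adjusted p of 0.0412.

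Itgax (chromosome 7, 128129547 to 128150657) encodes CD11c, the alpha chain of a β2 integrin typical of dendritic cells and alveolar macrophages. It was low, at 2.76, 1.49 and 9.14 CPM in WT and 7.99, 9.76 and 4.40 CPM in SIRPα KO. WT replicate 3 was as high as the SIRPα KO libraries so the groups overlapped. On the log2 scale Itgax differed by 0.73, with a 95% interval from -0.75 to 2.20 (adjusted p = 0.461), and it was 1.79 without WT replicate 3 (adjusted p = 0.0385). The 14 macrophage and monocyte markers, all in the table, summed to 415 to 901 CPM in WT, with the highest value in WT replicate 3, and to 490 to 744 CPM in SIRPα KO. Chil3 made up most of this sum. The defining genes C1qa, C1qb, C1qc and Fcgr1 were at 0 reads in every WT library. In SIRPα KO replicates 1, 2 and 3, C1qa had 7, 3 and 0 reads, C1qb 6, 7 and 9, C1qc 11, 6 and 4 and Fcgr1 8, 12 and 6. Mrc1 had 0, 3 and 4 reads in WT and 15, 27 and 15 in SIRPα KO, whereas Lyz2, Cd68 and Csf1r were present in all libraries and overlapped between the groups, and Marco had 0, 0 and 98 reads in WT against 18, 12 and 9. Of the 10 macrophage and monocyte markers past the filter, Mrc1 had the lowest adjusted p, 0.0851. Mrc1 passed that filter through the SIRPα KO libraries alone, so its test does not stand as evidence of its own. Dendritic cell markers, of which Clec9a was not in the table, summed to 214 to 315 CPM in WT against 140 to 150 CPM in SIRPα KO. Cd74, Xcr1, Ccr7 and H2-Ab1 carried this sum. Cd74, H2-Ab1 and Batf3 were lower in every SIRPα KO library than in any WT library, and the others in the table overlapped. Among the latter, Flt3 had 0 reads in every WT library and 2, 0 and 11 in SIRPα KO. Whether such cells account for any of the Itgax reads was not tested.

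Icam1 (chromosome 9, 21015985 to 21028817), the ligand of LFA-1, is an adhesion molecule that many activated cells, ILC2s included, carry on their own surface. WT libraries had 118, 92.7 and 106 CPM, and SIRPα KO libraries had 119, 112 and 112 CPM. WT replicate 2 was lowest, and the ranges of the groups overlapped. The estimate for Icam1 was 0.11 on the log2 scale, with a 95% interval from -0.19 to 0.41 and an adjusted p of 0.583. After the length and GC correction it was 0.34, with an interval from 0.07 to 0.61 and an adjusted p of 0.110. Icam1 shares 511 exon bases with Gm47079 on the opposite strand, which had at most 23 reads in a library. Whether strand entered the counting is not given in the sources used here, so reads in shared bases cannot be assigned.

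Itgb7 (chromosome 15, 102215995 to 102231944) encodes a beta chain of gut-homing receptors that pairs with Itgae or Itga4. It had 568, 522 and 468 CPM in WT against 373, 360 and 362 CPM in SIRPα KO. No SIRPα KO library reached the lowest WT library. Itgb7 fell by 0.51 in log2 terms (adjusted p = 0.0257, standard error 0.10), a level 1.42-fold lower in SIRPα KO. The length and GC correction took its log2 fold change to -0.24 (adjusted p = 0.214). The call also ended when WT replicate 1 was left out (adjusted p = 0.0501) and when SIRPα KO replicate 1, 2 or 3 was (adjusted p = 0.130, 0.139 and 0.119). B cells carry β7 too, and the B cell marker list (6 of 7 in the table, Pax5 not) summed to 216 to 479 CPM in WT and 23.1 to 84.6 CPM in SIRPα KO. T cell markers (8 of 10 in the table, Cd8a and Cd8b1 not) summed to 206 to 274 CPM in WT against 123 to 132 CPM in SIRPα KO. Trbc1 and Trbc2 carried this sum. With the length and GC correction the Trbc1 log2 fold change went from -0.96 to -0.34 and that of Trbc2 from -0.68 to -0.02. Cd3g was lower in both fits (-2.45 and -2.56) and Cd3e overlapped between the groups. NK and ILC1 markers, all 6 in the table, summed to 17.99 to 25.4 CPM in WT and 1.85 to 4.04 CPM in SIRPα KO. B220, the T cell proteins and CD335, made from the NK cell gene Ncr1, were among the lineage markers that the sort gated out. The part of such cells in the Itgb7 difference was not tested.

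Itgae (chromosome 11, 73090583 to 73147446) encodes CD103, the chain that lets mucosal lymphocytes and some dendritic cells hold E-cadherin of epithelium. Its reads were few, 47, 97 and 7 in WT and 8, 4 and 11 in SIRPα KO. WT replicates 1 and 2 were high at 2.7 and 6.90 CPM, whereas WT replicate 3 at 0.463 CPM lay among the SIRPα KO libraries, which had 0.511, 0.210 and 0.682 CPM. The 2 high libraries are those coded 37 and 37V1. The log2 fold change of Itgae was -2.83, the widest of the set, with a 95% interval from -5.03 to -0.63 and an adjusted p of 0.0891. Without WT replicate 3 it was -3.34 (adjusted p = 0.0160), and over all fits without one library it ran from -3.34 to -1.75. Haspin, with 321 to 725 reads per library, lies inside Itgae on the opposite strand without sharing exon bases. Dendritic, T cell, B cell and NK and ILC1 marker sums were higher in every WT library than in any SIRPα KO library. All but the B cell sum were highest in WT replicate 3, the WT library with the least Itgae. The B cell sum was lowest of WT there, at 479, 475 and 216 CPM in WT replicates 1, 2 and 3. It was 23.1, 84.6 and 82.1 CPM in SIRPα KO replicates 1, 2 and 3. The part of such cells in the Itgae difference was not tested.

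Itga4 (chromosome 2, 79255426 to 79333123) encodes the α4 chain of VLA-4 and of LPAM-1, the receptors for VCAM-1 and MAdCAM-1. WT replicates had 25.6, 17.7 and 16.2 CPM and SIRPα KO replicates had 40.5, 34.9 and 34.7 CPM. Every SIRPα KO library exceeded every WT library. Itga4 rose 1.85-fold, by 0.89 on the log2 scale (adjusted p = 0.0388, standard error 0.21). It has the longest transcript of the 10 at 9767 bases, and after the length and GC correction its log2 fold change was 0.34 (adjusted p = 0.345). The call was lost without WT replicate 2 (adjusted p = 0.0592) and without SIRPα KO replicate 1, 2 or 3 (0.166, 0.141 and 0.121). Itga4 shares 1124 exon bases with Cerkl on the opposite strand, which had at most 23 reads.

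Itgb1 (chromosome 8, 128685654 to 128733200) encodes the β1 chain, the common partner of the matrix-binding integrins. It had 180, 194 and 115 CPM in WT against 219, 227 and 188 CPM in SIRPα KO. WT replicate 2 lay above SIRPα KO replicate 3, so the groups overlapped. Itgb1 differed by 0.37 on the log2 scale, with a 95% interval from -0.08 to 0.83 and an adjusted p of 0.230. It was 0.18 without WT replicate 3 and 0.17 with the length and GC correction.

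Itgav (chromosome 2, 83724397 to 83806916) encodes the αv chain, which binds RGD motifs of matrix proteins and activates latent TGF-β. Its levels were 53.6, 83.6 and 34.4 CPM in WT against 108, 107 and 116 CPM in SIRPα KO. The groups did not overlap, yet the WT libraries spread more than 2-fold. Itgav differed by 0.95 on the log2 scale (adjusted p = 0.0675, standard error 0.29), and after the length and GC correction it was 0.55 (adjusted p = 0.128). DESeq2 gave 0.96 with an adjusted p of 0.00752, and without WT replicate 2 or 3 edgeR's adjusted p was 0.0168 and 0.0435. The edgeR value was 0.131 without WT replicate 1 and 0.148 with libraries of one code summed. Without SIRPα KO replicate 1, 2 or 3 it was 0.190, 0.187 and 0.182. The Itgav transcript shares 634 exon bases with Gm13684 on the opposite strand, which had 11 to 47 reads.

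Itgb3 (chromosome 11, 104608000 to 104670476) encodes the β3 chain of the vitronectin receptor, the integrin with which CD47 was first found. WT replicates had 268, 297 and 180 CPM, and SIRPα KO replicates had 115, 126 and 131 CPM. The lowest WT library was above the highest SIRPα KO library. Itgb3 fell 2.0-fold, by 1.0 in log2 terms (adjusted p = 0.0204, standard error 0.19). With the length and GC correction it fell by 1.18 (standard error 0.13, adjusted p = 0.00564), and DESeq2 gave -0.99 with an adjusted p of 2.85e-05. Without SIRPα KO replicate 1, 2 or 3 its adjusted p was 0.119, 0.119 and 0.0950, and with libraries of one code summed it was 0.142, at log2 fold changes of -0.94, -1.01, -1.03 and -0.91. Platelets carry β3 with Itga2b. The endothelial and platelet list (3 of 6 in the table, Cdh5, Cldn5 and Gp9 not) summed to 19.7 to 27.9 CPM in WT and 41.4 to 47.7 CPM in SIRPα KO, a sum carried by Pecam1. Of the platelet genes, Ppbp had 0, 2 and 10 reads in WT and 0 in every SIRPα KO library, Itga2b had 0, 10 and 35 reads in WT and 15, 0 and 0 in SIRPα KO, and Pf4 overlapped between the groups. The part of platelets in the Itgb3 difference was not tested. Mast cell, basophil and eosinophil markers, all 8 in the table, summed to 7.59 to 24.4 CPM in WT and 1.55 to 29.3 CPM in SIRPα KO, with overlap between the groups. FcεRIα, made from Fcer1a of this list, was among the lineage markers that the sort gated out. The part of such cells in the Itgb3 difference was not tested.

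**Figure D2:**
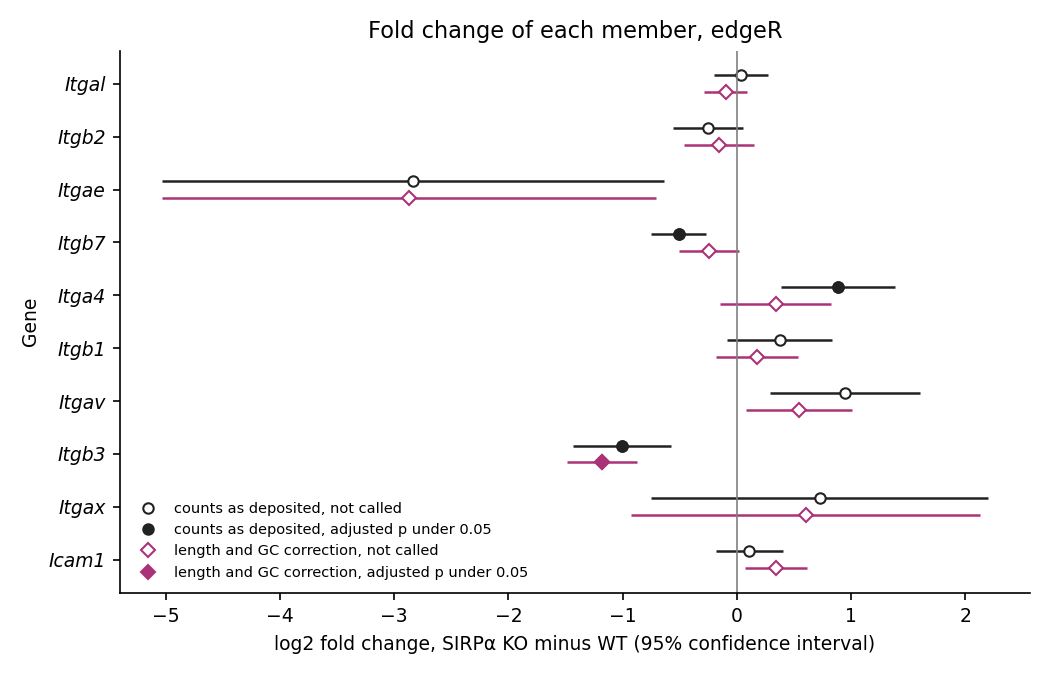
The log2 fold change of each member (SIRPα KO minus WT) with its 95% confidence interval, from counts as deposited (circles) and with the length and GC correction (diamonds), filled where the adjusted p was under 0.05. Itgb3 is filled in both, Itga4 and Itgb7 in the deposited counts only, and the Itgae interval runs from -5.03 to -0.63.

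For 4 of the 10 members the ranges of the groups were apart, 2 higher and 2 lower in SIRPα KO, while 42.8% of all genes tested did not overlap (21.6% higher and 21.2% lower). The members' share is thus close to that of all genes.

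Fold changes in these libraries followed transcript length, and the members span much of that range. Among genes with a mean log2 CPM of 3 or more, the decile with the shortest transcripts had a median log2 fold change of -0.55 and the decile with the longest had 0.47. From length and GC content alone, the fit gave a log2 difference of 0.54 for Itga4, 0.46 for Itgav and 0.22 for Itgb1, and -0.27 for Itgb7 and -0.23 for Icam1. For Itgb3, whose transcript is 5784 bases long, it gave 0.20, opposite to the measured fall. The plot of fold change against length shows Itgb3 and Itgae far below the line of decile medians.

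**Figure D3:**
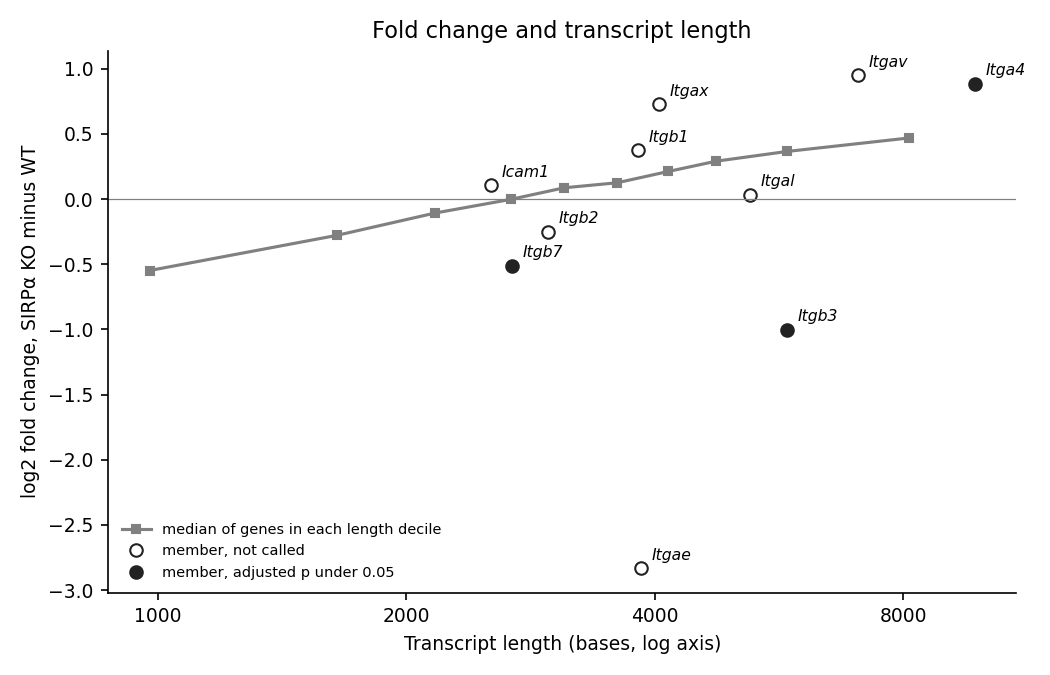
The log2 fold change of each member (SIRPα KO minus WT) against its transcript length in bases on a log axis, with grey squares for the median of the genes in each length decile. The decile medians climb from -0.55 to 0.47, and Itgb3 (-1.0) and Itgae (-2.83) lie far below them. The deciles hold genes with a mean log2 CPM of 3 or more, a level that Itgae does not reach.

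Since a heterodimer needs both chains, the log2 ratio of alpha to beta reads was taken within each library, which cancels library size but not length. The ratio of Itgav to Itgb3 was -2.32, -1.83 and -2.39 in WT and -0.09, -0.24 and -0.17 in SIRPα KO. All SIRPα KO libraries were above all WT libraries, by 2.01 on average, a 4.04-fold change of the ratio. With the length and GC correction the difference was 1.76, still without overlap. For Itga4 to Itgb7 (LPAM-1) the ratio was -4.47, -4.88 and -4.85 in WT and -3.20, -3.36 and -3.38 in SIRPα KO. This difference of 1.42 was 0.60 after the correction and the groups again did not overlap.

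Itgav to Itgb1 stood at -1.57 ± 0.31 in WT and -0.93 ± 0.21 in SIRPα KO, Itga4 to Itgb1 (VLA-4) at -3.03 ± 0.36 and -2.52 ± 0.15, and Itgal to Itgb2 (LFA-1) at -0.46 ± 0.10 and -0.18 ± 0.14 (SD, n = 3). Each was higher in all SIRPα KO libraries, but the differences of 0.51 for VLA-4 and 0.28 for LFA-1 became 0.18 and 0.05 with the correction and then overlapped, while that of 0.63 for Itgav to Itgb1 became 0.40 without overlap. The ratio of Itgae to Itgb7 was -7.94 ± 1.84 in WT and -9.66 ± 0.82 in SIRPα KO, that of Itgax to Itgb2 was -6.88 ± 1.52 and -5.58 ± 0.53 (SD, n = 3), and both overlapped between the groups, at differences of -1.72 and 1.29. Leaving out 1 library moved 3 of the differences by over 1.5 times. Without WT replicate 2 the difference was 0.30 for Itga4 to Itgb1, 0.62 for Itgax to Itgb2 and -0.87 for Itgae to Itgb7, and without WT replicate 3 the latter 2 were 2.12 and -2.69. In a 2-sided exact permutation test, 5 of the 7 ratios reached p = 0.1, the smallest that 3 libraries against 3 can give, and the other 2 had p = 0.3. Adjusted over the 7 ratios these were 0.14 and 0.3, so no ratio could pass 0.05 by this test.

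**Figure D4:**
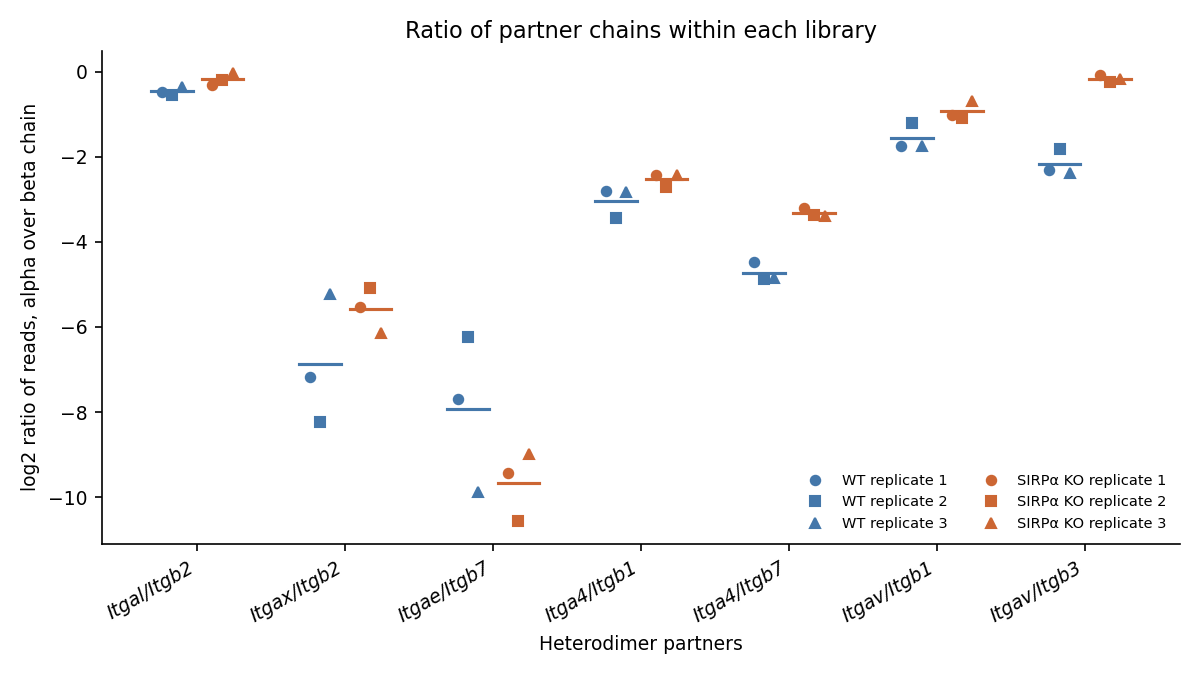
The log2 ratio of alpha to beta chain reads within each library for 7 heterodimers, with 1 point per library and a bar at the group mean. Itgav to Itgb3 moves from -2.18 on average in WT to -0.17 in SIRPα KO, whereas Itgax to Itgb2 and Itgae to Itgb7 overlap between the groups.

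As a share of the summed level per length of the 7 beta chains in the table, Itgb7 took 46.8% ± 3.34 in WT and 41.5% ± 1.31 in SIRPα KO, and Itgb2 took 32.6% ± 1.71 and 34.7% ± 1.49 (SD, n = 3). Itgb1 took 10.6%, 11.3% and 8.55% in WT and 16.8%, 18.1% and 15.7% in SIRPα KO, while Itgb3 took 10.4%, 11.4% and 8.86% in WT and 5.82%, 6.65% and 7.20% in SIRPα KO. Both sets of shares were apart between the groups, in opposite directions. The shares were not corrected for the length trend, and the CPM of Itgb1 overlapped between the groups (adjusted p = 0.230). Among 14 alpha chains, Itgal held 71.2% ± 4.75 in WT and 60.2% ± 0.240 in SIRPα KO, and Itgav held 10.1% ± 3.23 and 16.6% ± 0.432 (SD, n = 3). Itga4 held 2.59% ± 0.569 in WT and 3.98% ± 0.371 in SIRPα KO. Shares within a family are tied to each other. The lower share of Itgal and the higher share of Itgb1 are thus not measures of their own levels, which are given above.

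**Figure D5:**
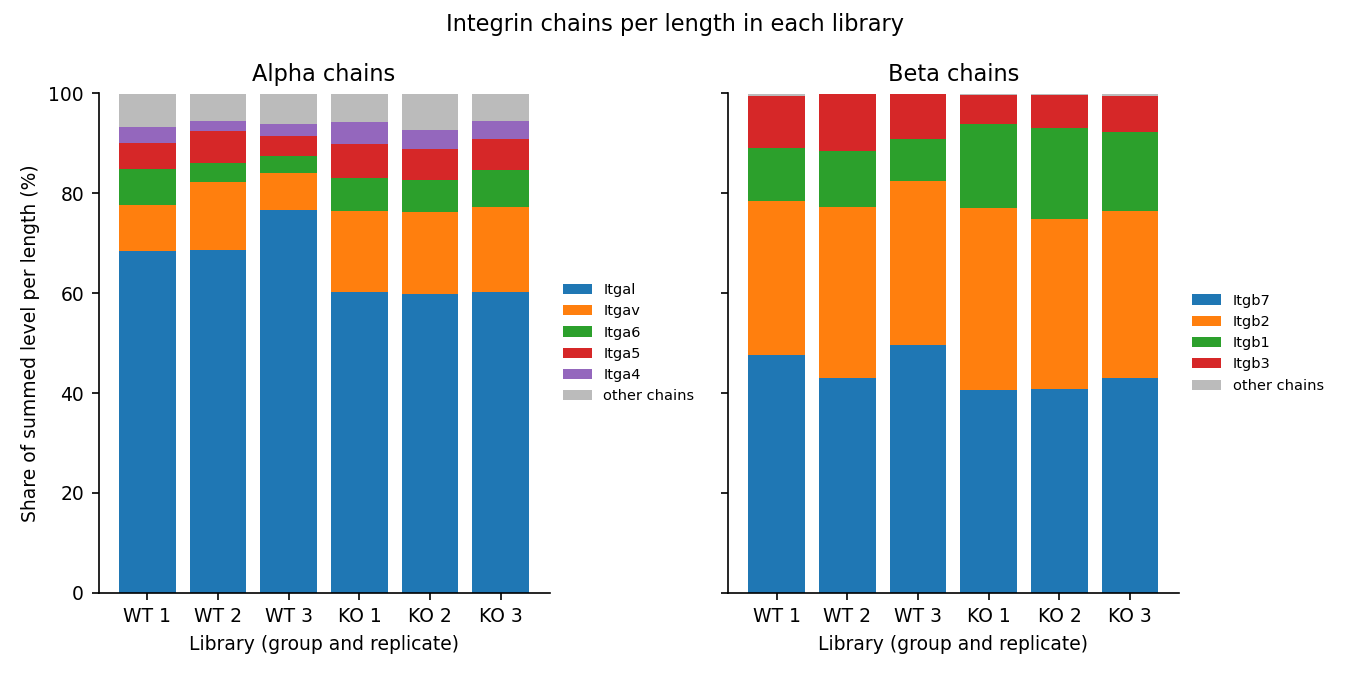
Stacked shares, in percent, of the summed level per length of the alpha chains (left) and beta chains (right) in each library, with the less abundant chains pooled in grey. Itgal is the widest alpha segment at 59.9% to 76.7%, and in the beta panel the Itgb1 segment is wider and the Itgb3 segment narrower in all SIRPα KO libraries.

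Of 18 other integrin chains looked up, 12 were in the table and 7 passed the filter. Itgam, which encodes CD11b of myeloid cells, was the 1 called (11.7% of all genes were), with 8, 56 and 20 reads in WT and 146, 207 and 214 in SIRPα KO. Itgam rose by 2.55 in log2 terms (adjusted p = 0.0454), against 2.36 with the length and GC correction (adjusted p = 0.0598). Of the 14 macrophage and monocyte markers, C1qb, C1qc, Fcgr1, Mrc1 and Cd14 were higher in every SIRPα KO library than in any WT library and the others overlapped, as did the sum given beside Itgax. The part of such cells in the Itgam difference was not tested. The Itgam call was lost without WT replicate 1 or 3 (adjusted p = 0.0514 and 0.0673) and without SIRPα KO replicate 1, 2 or 3 (0.145, 0.154 and 0.147). In the same order the log2 fold changes of Itgam were 2.08 and 2.37, then 2.67, 2.57 and 2.41. A GENCODE gene, Gm49368, shares 73.8% of its transcript at 99.9% identity on the same strand, so its count is uncertain. Itga5 and Itga6, alpha chains of fibronectin and laminin receptors that pair with β1, had log2 fold changes of 0.53 (adjusted p = 0.207) and 0.73 (adjusted p = 0.168). Without WT replicate 1 Itga6 was called at 1.18 (adjusted p = 0.0421), and without WT replicate 3 Itga6 was 0.47 and Itga5 0.30. Itga2, Itga2b, Itga3 and Itgb5 were at 7.28 CPM or less in either group mean and had log2 fold changes of -0.62, -1.66, -0.50 and 0.50, with adjusted p of 0.526 to 0.690. Single libraries decided these values, since Itga2b was -0.13 without WT replicate 3 and had no reads in the SIRPα KO libraries other than replicate 1, and Itgb5 ran from 0.20 without SIRPα KO replicate 3 to 1.26 without WT replicate 1 (0.23 and 0.26 without WT replicates 2 and 3). Itga1, Itga7, Itga10, Itgb4 and Itgb6 did not pass the filter. The median log2 fold change of the 7 was 0.50, the value of Itgb5.

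Of 15 other integrin ligands, 13 were in the table, 11 passed the filter and 2 were called, 1 in each direction, beside 11.7% of all genes. Tgfb1, whose latent form is held by αv integrins, was the most abundant of them and fell by 0.62 on the log2 scale, from 363 ± 29.3 to 236 ± 6.26 CPM (SD, n = 3, adjusted p = 0.0162). With the correction its log2 fold change was -0.47 (adjusted p = 0.0283), and without SIRPα KO replicate 1, 2 or 3 its adjusted p was 0.107, 0.116 and 0.0947. Over all fits without one library Tgfb1 ran from -0.67 to -0.55. Fn1, fibronectin, rose by 1.78 from a low level, 2.43 ± 1.41 to 8.42 ± 2.30 CPM (SD, n = 3, adjusted p = 0.0478), and was not called with the correction (adjusted p = 0.0833). It was also lost without WT replicate 2 or 3 (0.0579 and 0.0656) and without SIRPα KO replicate 1, 2 or 3 (0.132, 0.162 and 0.165). Fn1 ran from 1.47 to 2.34 over all fits without one library. Icam2, a constitutive LFA-1 ligand and the next most abundant, had a log2 fold change of -0.26 (adjusted p = 0.406), which was 0.27 after the correction and ran from -0.40 (WT replicate 2 left out) to -0.03 (WT replicate 3 left out). The median log2 fold change of the 11 ligands was -0.07.

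Of 49 genes for integrin activation and adhesion adaptors, 47 were in the table and 42 passed the filter. Called were 8 of these 42, 2 higher and 6 lower, beside 11.7% of all genes (5.94% higher and 5.81% lower), with a list median of -0.02. With the length and GC correction the split was 3 higher and 2 lower, beside 8.52% of all genes (677 genes higher and 484 lower). Ptk2, focal adhesion kinase, rose by 1.04 in log2 terms (adjusted p = 0.0305) and went from 36.8 ± 10.7 to 75.9 ± 10.9 CPM (SD, n = 3). Tln2, the talin less common in blood cells, had 0 reads in every WT library and 14, 38 and 24 in SIRPα KO. Against a floor of 3 reads summed over the WT group it was at least 23.2-fold higher. Tln2, 1 of the 2 counted higher, passed the filter on low counts through the SIRPα KO libraries alone, and Rasgrp2, 1 of the 6 counted lower, through the WT libraries alone, so neither call stands as evidence of its own. Rasgrp2, an activator of Rap1 upstream of integrins, fell by 2.54 (adjusted p = 0.0252) with 40, 30 and 34 reads in WT and 5, 6 and 8 in SIRPα KO. It was not called without WT replicate 1 (adjusted p = 0.0534), and ran from -2.78 to -2.42 over all fits without one library. Dok2, an adaptor of the Dok family, fell by 0.82 (adjusted p = 0.0149) and Cib1, a calcium-binding protein found with the platelet integrin tail, fell by 0.76 (adjusted p = 0.0261). With the length and GC correction Dok2 stood at -0.37 and Cib1 at -0.20, with adjusted p of 0.122 and 0.312, and neither was called. Cd47 itself, listed here for its association with β3 integrins, had 393 ± 51.4 CPM in WT, against 246 ± 8.12 CPM in SIRPα KO (SD, n = 3). It fell by 0.68 (adjusted p = 0.0184) and by 1.09 with the correction (adjusted p = 0.0170). Without SIRPα KO replicate 1, 2 or 3 its adjusted p was 0.112, 0.122 and 0.0950, at log2 fold changes of -0.69, -0.64 and -0.68. Rap1b, the GTPase that turns on integrins, and Skap1, which links Rap1 to LFA-1 in T cells, were the most abundant per length at 513 and 469 in WT. They had log2 fold changes of 0.25 (adjusted p = 0.144) and -0.25 (adjusted p = 0.122). None of the 8 called adaptors was called in the fits without SIRPα KO replicate 1, 2 or 3, or when libraries of one code were summed. In each of these fits edgeR called 0 of the list, and 10 of 43 or 44 adaptors had an unadjusted p under 0.05. So had 2991 of 14242, 2935 of 14146, 3183 of 14141 and 3359 of 14581 of all genes.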

How the data were processed

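Bulk RNAseq of cultured ILC2s from 3 WT and 3 SIRPα KO libraries was used. The submitters' processing notes name STAR 2.7.8, Partek 10.0, DESeq2 and mm10. The paper's methods name GENCODE M21 and give other version numbers for STAR and Partek. The authors deposited estimated counts per gene, not scaled for depth, without a gene below 10 reads in total. Whether strand was counted is not given in the sources used here. Counts were rounded, filtered with edgeR 4.0.16 (filterByExpr with its minimums of 10 reads per median-sized library and 15 over all libraries), normalized by TMM and fitted by genotype for its quasi-likelihood test (R 4.3.3, limma 3.58.1). Standard errors came from the F statistic. The length and GC correction fitted splines with 5 degrees of freedom to each library over 8915 genes. Ratios had 0.5 reads added. Figures used matplotlib 3.10.9, and near-identical copies were sought with BLAST+ 2.17.0 (at least 95% identity over 50% of the transcript). The procedures were tested on simulated data. Alternatives were DESeq2 1.42.0, other scalings and filters, leaving out each library, a replicate block, libraries of one code summed and the correction. The members and gene lists were chosen with earlier results of these data known. Beyond the members, Sirpa and Cd47, named genes were every other integrin chain past the filter and, in the 2 other lists, up to 6 called genes of largest change and the 2 most abundant per length.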

Additional observations from a re-analysis of the deposited data

How the results depend on the processing

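Direction was kept by 9 of the 10 members under every alternative that gave a value. Itgal turned, to -0.063 with upper quartile factors (which shift the median of all genes by -0.10) and -0.10 with the length and GC correction. Without one library its values ran from -0.014 to 0.088. The length and GC correction brought the members called to 1, other chains to 0, ligands to 1 and adaptors to 5, beside 8.52% of all genes. At an unadjusted p under 0.05 it left 2 other chains and 3625 of all 13623 genes. The log2 fold changes became -0.24 for Itgb7, 0.34 for Itga4 and, with a turned sign, 0.27 for Icam2. The ratio differences became 0.049 for Itgal to Itgb2, 0.18 for Itga4 to Itgb1, 0.60 for Itga4 to Itgb7 and 1.76 for Itgav to Itgb3. DESeq2 called 3118 genes and 5 members, with Itgae at -2.84 and Itgav at 0.96 now called. Without a filter, edgeR called 1151 of 17831 genes (4720 at an unadjusted p under 0.05). Itga4 (0.91, adjusted p = 0.0501 from edgeR) was lost there. In that fit 1 ligand and 0 other chains were called (2 of the chains at an unadjusted p under 0.05). With libraries of one code summed, which leaves 2 against 2, edgeR called 10 of 14581 genes and 0 members. At an unadjusted p under 0.05 there were 4 members and 3359 of all genes. It called 0 other chains, 0 ligands and 0 adaptors (1 of 8, 3 of 11 and 10 of 44 unadjusted). The values were -0.46 for Itgb7, 0.98 for Itga4 and -0.91 for Itgb3.

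Without one library, edgeR called 16 to 2606 genes, 0 to 7 members, 0 to 1 other chains, 0 to 2 ligands and 0 to 13 adaptors. The lowest counts came without a SIRPα KO library. There 4 or 5 members had an unadjusted p under 0.05, beside 2935 to 3183 of the 14141 to 14242 genes tested. The log2 fold changes ran from -0.35 to -0.15 for Itgb2, -3.34 to -1.75 for Itgae, -0.57 to -0.44 for Itgb7, 0.77 to 1.12 for Itga4, 0.70 to 1.33 for Itgav, 0.18 to 0.52 for Itgb1, 0.023 to 0.20 for Icam1, -1.18 to -0.85 for Itgb3 and 0.31 to 1.79 for Itgax. Itga2 (-1.22 to 0.070) and Itga3 (-0.94 to 0.42) turned without WT replicate 1. The cause of these shifts was not tested, and each of these fits also held fewer libraries. The labels do not say whether same-numbered WT and SIRPα KO libraries share more than a number. Their deviations from the group means correlated at -0.14, 0.19 and 0.04, and those of differently numbered pairs at -0.28 to 0.22. With so few libraries these values cannot decide it. The replicate block left 1118 genes, 3 members and 5 adaptors called. Itgae was not among the genes kept by a filter of 1 CPM in 3 libraries. Itgae had only 4 to 97 reads per library.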
